A study of Gallus gallus with 14 samples.

Results

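The metabotropic glutamate receptors of the chicken retina were described by their transcript levels in 14 retinal RNA-seq libraries. The genes were taken by symbol from a list of 7 (GRM2, GRM3, GRM4, GRM5, GRM6, GRM7 and GRM8), and 6 of these had values among the 18631 genes of the deposited table. GRM6, the receptor of ON bipolar cells, was not analysed here. Of the 6 genes with values, 5 had a mean of at least 1 CPM (reads per 1000000, not divided by gene length) over the libraries and entered the test across genes. GRM2 lay under that level.

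The libraries came from wild type chickens of the White Leghorn breed, kept for egg laying, at an age of 3 days. The 7 lens retinas came from eyes that had worn a -10 D lens for 1 day, which places the image behind the retina and drives the growing eye to elongate, and 7 retinas were labelled as control. By the numbers in their titles the lens libraries form a set of 4 (1 to 4) and a set of 3 (12 to 14), while controls are numbered 10, 17, 18, 19, 21, 22 and 23. Neither the handling of control eyes nor the use of separate birds is stated, so each p-value covers only the spread among these libraries, part of which may be technical. The question was how the retina responds early to such a lens.

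These receptors sense glutamate and act through G proteins, more slowly than the glutamate-gated channels. Group I, to which GRM5 belongs, couples to Gq and phospholipase C and releases calcium from internal stores. Group II (GRM2 and GRM3) and group III (GRM4, GRM6, GRM7 and GRM8) couple to Gi/o and lower cyclic AMP, often at presynaptic terminals. In the retina, photoreceptors release glutamate in the dark, and mGluR6 on ON bipolar dendrites then keeps the channel TRPM1 closed.

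Depth, recovered from the step between low CPM values, ranged in lens set 1 to 4 between 34.1 and 43.4 M reads (M, 1000000), in lens set 12 to 14 between 40.4 and 49.2 M and in controls between 27.7 and 40.2 M. Marker genes of the retina were present throughout. The 10 photoreceptor markers with values summed to between 1461 and 1959 CPM across lens libraries and between 1534 and 1903 CPM across control libraries. The 9 amacrine markers summed to 595 to 648 CPM in lens set 1 to 4 and 507 to 573 CPM in lens set 12 to 14. The lens sets did not overlap in this sum, and control libraries lay between 551 and 604 CPM. The 4 bipolar markers with values summed to 245.0 to 257.5 CPM in lens set 1 to 4 and 237.1 to 244.6 CPM in lens set 12 to 14. The lens sets did not overlap in that sum either, and control libraries lay between 218.8 and 248.3 CPM. In the sums of the other marker lists with values the lens sets overlapped. The 4 muscle markers with values summed to at most 0.219 CPM in any lens library and at most 0.253 CPM in any control library. Reads of 30 genes on W, the female sex chromosome of birds, summed to 261 to 305 CPM in 7 libraries (lens libraries 1, 2, 3 and 13, control libraries 19, 21 and 23), here termed W high, and to 40.9 to 51.1 CPM in the other 7, termed W low. No sex is stated for any bird. Since the retinas were sequenced whole, fewer cells of a type and less RNA per cell cannot be told apart.

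GRM5, the group I receptor that couples to phospholipase C and binds Homer scaffold proteins at synapses, was lower in the lens retinas. The gene lies on chromosome 1 of GRCg6a, at 189235312 to 189490667 on the plus strand. It had 39.1, 49.8, 46.8 and 44.9 CPM in lens libraries 1, 2, 3 and 4, and 50.9, 48.6 and 50.4 CPM in lens libraries 12, 13 and 14. Control libraries 10, 17, 18, 19, 21, 22 and 23 had 56.8, 54.4, 58.8, 63.7, 66.2, 56.8 and 62.1 CPM. All 7 lens libraries lay below all 7 control libraries, with the lowest value in lens library 1.

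GRM5 averaged 47.2 ± 4.15 CPM in lens libraries and 59.8 ± 4.28 CPM in control libraries (SD, n = 7 each), a mean 21.1% lower. The log2 difference was -0.34 (SE 0.061, 95% interval -0.47 to -0.21), and 127 of the 11005 genes tested had a difference as low or lower. In this comparison no gene passed the threshold (limma, Benjamini-Hochberg adjusted p under 0.05), which is 0% of the genes tested, while 1619 genes had an unadjusted p under 0.05, or 14.7%. GRM5 had the third smallest p of all genes tested, with an unadjusted p of 3.95e-05 and a limma adjusted p of 0.0772. GRM5 was singled out with its difference in these data known, so this rank is no separate support. With library weights in the same test the adjusted p of GRM5 was 0.0492, and without lens library 14 it was 0.0468. In these runs 16 and 15 of the 11005 genes tested passed. Under every other alternative run GRM5 did not pass. Its adjusted p reached 0.200 in other settings and 0.204 with 1 library left out. Lens and control ranges without overlap, with lens lower, were found for 16 genes, or 0.145% of those tested, GRM5 among them.

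GRM5 fell in lens libraries 1 to 4, to 45.2 ± 4.52 CPM (SD, n = 4) against 59.8 ± 4.28 CPM in control libraries (SD, n = 7). The log2 change was -0.40 (SE 0.070, 95% interval -0.55 to -0.25), and its limma adjusted p was 0.00399. All 4 lay below every control library, as did the lens values of 300 genes in that comparison, or 2.73%. There 446 genes fell, or 4.05% of those tested, and 1034 rose, or 9.4%. The split between rises and falls moved with the scaling, to 678 rises and 795 falls under median-of-ratios scaling, while GRM5 fell under each of the 3 other scalings tried. An exact rank-sum test gave GRM5 an adjusted p of 0.0620, the smallest that test gave any gene. Every gene whose lens and control libraries did not overlap shares that value, RGS7, SIAH1, RGS8, SLC17A6 and ADCY2 among them. In that test 0 of the 11005 genes passed. The library numbers fix its smallest p, and whether that p passes adjustment depends on how many genes share it.

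In lens libraries 12 to 14 GRM5 averaged 49.9 ± 1.23 CPM (SD, n = 3), also below every control library. The log2 difference from control was -0.25 (SE 0.063, 95% interval -0.39 to -0.12) and the limma adjusted p was 0.922. Here no gene passed the adjusted threshold, 0% of those tested, and 571 had an unadjusted p under 0.05, or 5.19%, GRM5 being one of them with 0.00158. The groups did not overlap, with lens lower, for 102 genes, or 0.927% of those tested. Both sets were set against the same 7 control libraries.

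The lens sets themselves overlapped in GRM5. Library 2 had 49.8 CPM, within the 48.6 to 50.9 CPM of libraries 12 to 14, and libraries 1, 3 and 4 lay below that range. The mean of lens set 1 to 4 minus that of set 12 to 14 was -0.15 (log2, SE 0.082, 95% interval -0.33 to 0.037, limma adjusted p = 0.298). In this comparison 551 genes passed, or 5.01% of those tested, 3.53% being higher in set 1 to 4. The summed amacrine markers and the summed bipolar markers were each higher in set 1 to 4 than in set 12 to 14, without overlap. The same held for 15.5% of all genes tested. The largest terms of these sums were GAD1 and GRIK1, at means of 324 and 146 CPM. The other marker sums overlapped between the lens sets. For ON bipolar markers they were 249.0 to 271.3 and 247.5 to 276.6 CPM, and for ganglion cell markers 224.6 to 259.7 and 230.3 to 247.0 CPM. The part of any marker sum in the values of GRM5 was not tested. The sets also differed in W level, with 3 of 4 libraries W high in set 1 to 4 and 1 of 3 in set 12 to 14. What else differs between the lens sets is not in the labels, so the lens set and any such difference cannot be told apart.

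**Figure D1:**
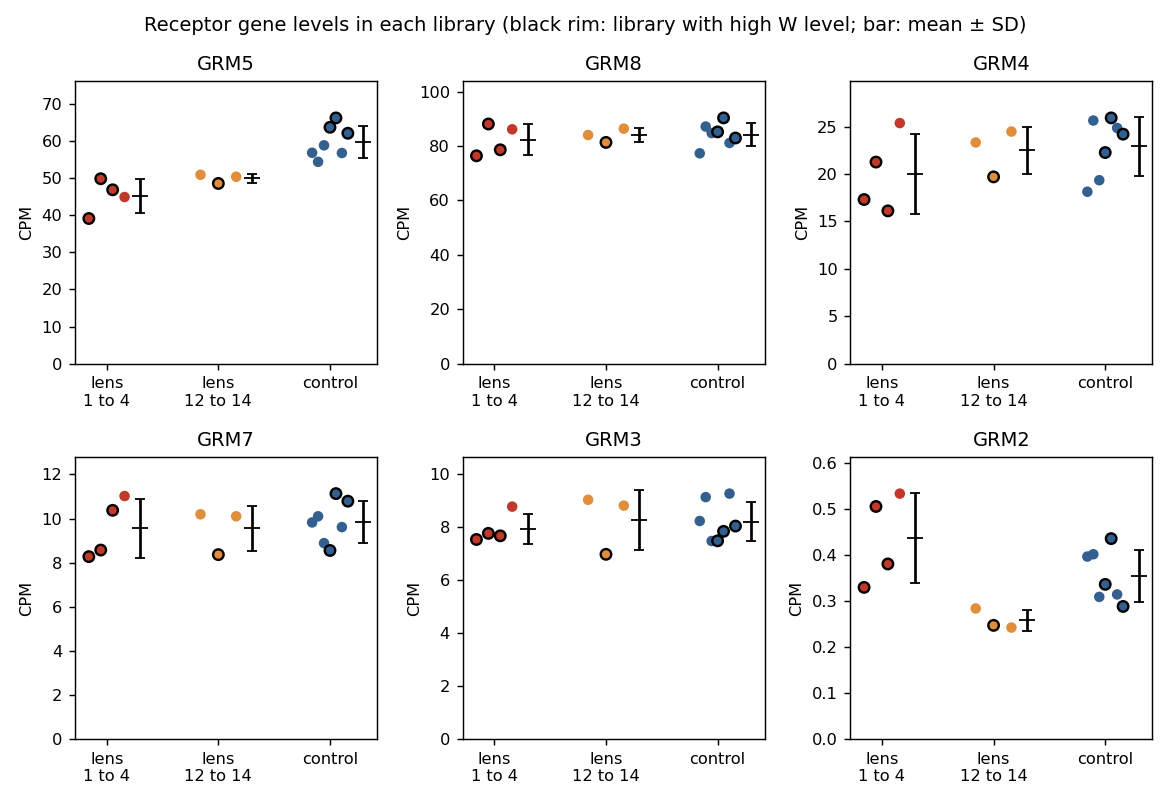
Level of each receptor gene in CPM, each on its own linear axis, in lens libraries 1 to 4, lens libraries 12 to 14 and control libraries; each point is 1 library with a black rim where it is W high, and bars give the mean ± SD. For GRM5 the lens points lie between 39.1 and 50.9 CPM and the control points between 54.4 and 66.2 CPM, and for the other 5 genes the 7 lens points overlap the 7 control points.

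Within each library the ratio of GRM5 to another receptor gene does not depend on how that library was scaled. The 4 ratios described here were added after the values of GRM5 were seen, so they carry no test. GRM5 over GRM8 was 0.512, 0.565, 0.596 and 0.521 in lens libraries 1 to 4 and 0.605, 0.597 and 0.583 in lens libraries 12 to 14. In control libraries it was 0.624 to 0.748, with a median of 0.733. The lens and control ranges did not overlap, and the mean log2 ratio differed by -0.32. GRM5 alone already separated these libraries and GRM8 varied little, so this separation largely repeats the GRM5 values and is no separate support. How often ratios of other gene pairs separate the libraries was not counted.

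Its mean was 0.568 ± 0.0378 in lens libraries and 0.711 ± 0.0443 in control libraries (SD, n = 7 each). For the ratio to GRM7, 5 of 7 lens libraries lay below every control library, at 4.99 ± 0.642 in lens libraries against 6.12 ± 0.691 in control libraries. For GRM3 it was 4 of 7, at 5.88 ± 0.664 and 7.36 ± 1.05. For GRM4, the most variable of these denominators, it was 2 of 7, at 2.28 ± 0.354 in lens libraries and 2.65 ± 0.379 in control libraries. All 4 ratios were lower on average in the lens libraries, with log2 differences of -0.32 to -0.22.

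**Figure D2:**
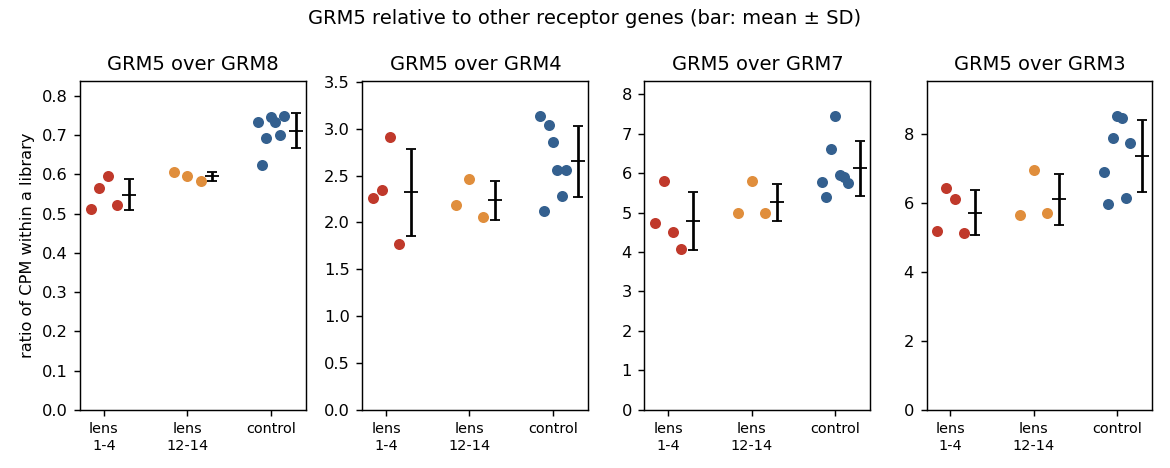
Ratio of GRM5 to another receptor gene within each library, on linear axes, for lens libraries 1 to 4, lens libraries 12 to 14 and control libraries; each point is 1 library and bars give the mean ± SD. The ratio to GRM8 separates all lens libraries from all control libraries, while the ratio to GRM4 ranges from 1.77 to 2.91 in lens libraries and from 2.12 to 3.13 in control libraries.

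GRM3, the group II receptor that in the mammalian brain is found on both neurons and glia, had overlapping levels in all sets. It lies on chromosome 1 at 8188208 to 8296972 on the minus strand. It had 7.54, 7.77, 7.68 and 8.78 CPM in lens libraries 1 to 4, and 9.04, 6.98 and 8.82 CPM in lens set 12 to 14. Control libraries lay between 7.48 and 9.27 CPM, with a median of 8.04. The ranges overlapped almost wholly. Its log2 difference between lens and control was -0.02 with a 95% interval of -0.17 to 0.13 (limma adjusted p = 0.913).

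GRM2, the other group II receptor, gave only 8.01 to 21.9 reads per library, so its values carry a large counting error. The gene lies on chromosome 12 at 3311807 to 3320337 on the plus strand. It had 0.330, 0.506, 0.381 and 0.534 CPM in lens libraries 1 to 4 and 0.284, 0.248 and 0.243 CPM in lens libraries 12 to 14. Control libraries had 0.289 to 0.436 CPM, with a median of 0.337. Lens libraries 12 to 14 lay below every control library and below every library of lens set 1 to 4. Among the genes tested, which do not include GRM2, 0.927% and 15.5% showed such a separation, the second being the share higher in set 1 to 4.

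Over all libraries GRM2 averaged 0.361 ± 0.119 CPM with lens and 0.355 ± 0.0562 CPM in control (SD, n = 7 each; exact permutation test of log2(CPM + 1), two-sided, p = 0.963). Each two-sided exact p here is double the p for the observed direction alone. For lens libraries 12 to 14 against control the exact permutation p was 0.0167, the smallest that 120 splits allow with this doubling. It was 0.0667 after adjustment over the 4 comparisons made. For lens libraries 1 to 4 against control the exact p was 0.127, adjusted 0.170. Lens libraries 1 to 4 against 12 to 14 gave an exact p of 0.0571, the smallest that 35 splits allow with this doubling, adjusted 0.114. The lens spread of 33.0% (CV) stood beside a counting error of 27.7% at the median number of reads, and the control spread of 15.8% beside 28.9%.

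Of the group III receptors, GRM8, which in mammals sits on presynaptic terminals, had the steadiest level of the 6 genes with values. It lies on chromosome 1 at 21072255 to 21396653 on the plus strand. It had 76.4, 88.1, 78.6 and 86.2 CPM in lens libraries 1 to 4, and 84.1, 81.4 and 86.4 CPM in lens set 12 to 14. Control libraries lay between 77.3 and 90.4 CPM, with a median of 84.8. The groups overlapped, with a CV of 5.25% in lens and 5.00% in control libraries. The log2 difference was -0.02, with a 95% interval of -0.11 to 0.075 (limma adjusted p = 0.871).

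GRM7, a presynaptic group III receptor of low affinity for glutamate, had 8.27, 8.57, 10.4 and 11.02 CPM in lens libraries 1 to 4 and 10.2, 8.37 and 10.1 CPM in lens libraries 12 to 14. Control libraries had 8.55 to 11.1 CPM, with a median of 9.82. The groups overlapped, and the log2 difference was -0.04 with a 95% interval of -0.20 to 0.12 (limma adjusted p = 0.833). GRM7 lies on chromosome 12 at 19262298 to 19487340 on the plus strand. Its span overlaps LOC107054401 on the same strand (mean 1.93 CPM) and LOC107054402 on the other (mean 0.0677 CPM), with which it may share reads.

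GRM4, also a presynaptic group III receptor, varied most among the 5 genes tested. It lies on chromosome 26 at 4433927 to 4475128 on the plus strand. It had 17.3, 21.3, 16.1 and 25.4 CPM in lens libraries 1 to 4, and 23.3, 19.7 and 24.5 CPM in lens set 12 to 14. Control libraries lay between 18.1 and 25.9 CPM, with a median of 24.2. Both the lowest lens values and the highest came from set 1 to 4. Its CV was 16.9% in lens and 13.6% in control libraries, against a counting error of 3.29% and 3.55% at the median number of reads, and the log2 difference was -0.12 (95% interval -0.34 to 0.10, limma adjusted p = 0.614).

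Among the 5 genes tested, GRM5 in lens libraries 1 to 4 was the 1 call in the comparisons of lens or a lens set with control. For GRM3, GRM4, GRM7 and GRM8 the adjusted p was 0.304 to 0.793 in lens libraries 1 to 4 against control, where log2 differences ran from -0.20 for GRM4 to -0.03 for GRM8. In lens libraries 12 to 14 against control the differences of these 4 genes lay between -0.04 and 0.01. A p above the threshold does not show equal levels: the interval of GRM4 leaves room for a difference of -0.34, as large as that of GRM5.

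**Figure D3:**
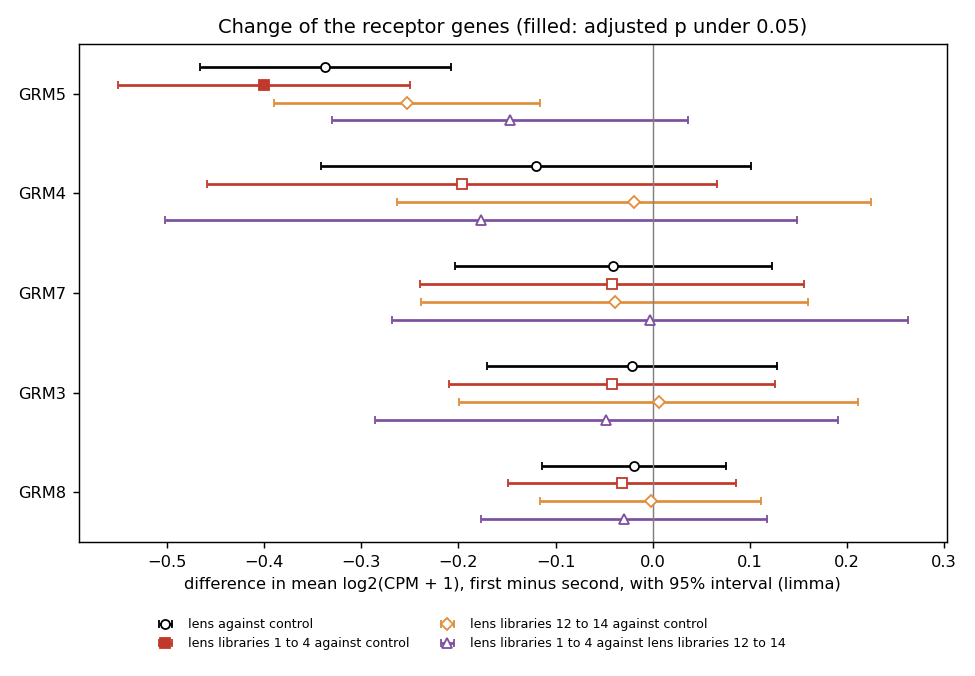
Log2 difference of each tested receptor gene, with 95% intervals, in lens against control, lens libraries 1 to 4 against control, lens libraries 12 to 14 against control, and lens libraries 1 to 4 against 12 to 14. The intervals of GRM5 lie below 0 in the 3 comparisons with control, at -0.34, -0.40 and -0.25, and those of GRM3, GRM4, GRM7 and GRM8 cross 0.

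The split by W level was made after the data were seen. W high lens libraries were libraries 1, 2 and 3 of set 1 to 4 and library 13 of set 12 to 14. W low lens libraries were library 4 of set 1 to 4 and libraries 12 and 14 of set 12 to 14. W level and lens set thus went partly together, and their parts in this split cannot be told apart. Among W high libraries GRM5 averaged 46.1 ± 4.81 CPM in lens (SD, n = 4) and 64.0 ± 2.08 CPM in control (SD, n = 3), a log2 difference of -0.47 (SE 0.077, limma adjusted p = 0.0217). That fit held all 14 libraries, so its SE and p-values draw on the spread of W high and W low libraries alike. In it 43 genes passed among W high libraries, or 0.391% of those tested. Among W low libraries it averaged 48.7 ± 3.32 CPM in lens (SD, n = 3) and 56.7 ± 1.82 CPM in control (SD, n = 4), a difference of -0.22 (limma adjusted p = 0.846), and no gene passed, 0% of those tested. Any split of these libraries keeps the separation of GRM5, so lens and control did not overlap in either part, with lens lower. The same held for 9.36% of all genes tested among W high libraries and for 1.43% among W low ones. The differences themselves differed by -0.25 (SE 0.109, limma adjusted p = 0.576 and unadjusted p = 0.0328), and 0% of the genes passed that test.

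For the other 4 genes tested the lens mean lay below control among W high libraries and above it among W low ones. The log2 differences among W high and W low libraries were -0.36 and 0.16 for GRM4, -0.17 and 0.11 for GRM7, -0.09 and 0.05 for GRM8, and -0.05 and 0.06 for GRM3, and none of them passed (limma adjusted p 0.132 to 0.945). Among W high libraries GRM4 averaged 18.6 ± 2.32 CPM in lens (n = 4) and 24.1 ± 1.83 CPM in control (n = 3), without overlap. Lens lay wholly below control in that part for 9.36% of all genes tested. Among W low libraries GRM4 averaged 24.4 ± 1.02 CPM in lens (n = 3) and 21.995 ± 3.80 CPM in control (n = 4), and the groups overlapped. GRM7 averaged 10.4 ± 0.505 CPM in lens (n = 3) and 9.61 ± 0.519 CPM in control (n = 4) among W low libraries, with no overlap, although the nearest lens and control libraries both stood at 10.1 CPM. There 4.18% of all genes tested had lens wholly above control. For GRM4 the difference between the lens effects was -0.52 (SE 0.166, unadjusted p = 0.00634, limma adjusted p = 0.482). For GRM7 it was -0.28 (adjusted p = 0.612), for GRM8 -0.14 (adjusted p = 0.671) and for GRM3 -0.11 (adjusted p = 0.829).

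The titles also carry a letter, L or R. Among titles with L, GRM5 averaged 47.8 ± 2.56 CPM in lens and 58.3 ± 4.83 CPM in control (SD, n = 3 each), and among titles with R 46.8 ± 5.43 CPM in lens and 61.0 ± 4.10 CPM in control (SD, n = 4 each). Lens and control overlapped in neither part, which also held, with lens lower, for 6.24% of all genes tested among titles with L and 1.27% among titles with R. The exact two-sided permutation p was 0.1 for L and 0.0286 for R, in each case the smallest these numbers allow. Since every lens library lay below every control library in GRM5, any split gives its smallest p, and these p-values add no support.

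**Figure D4:**
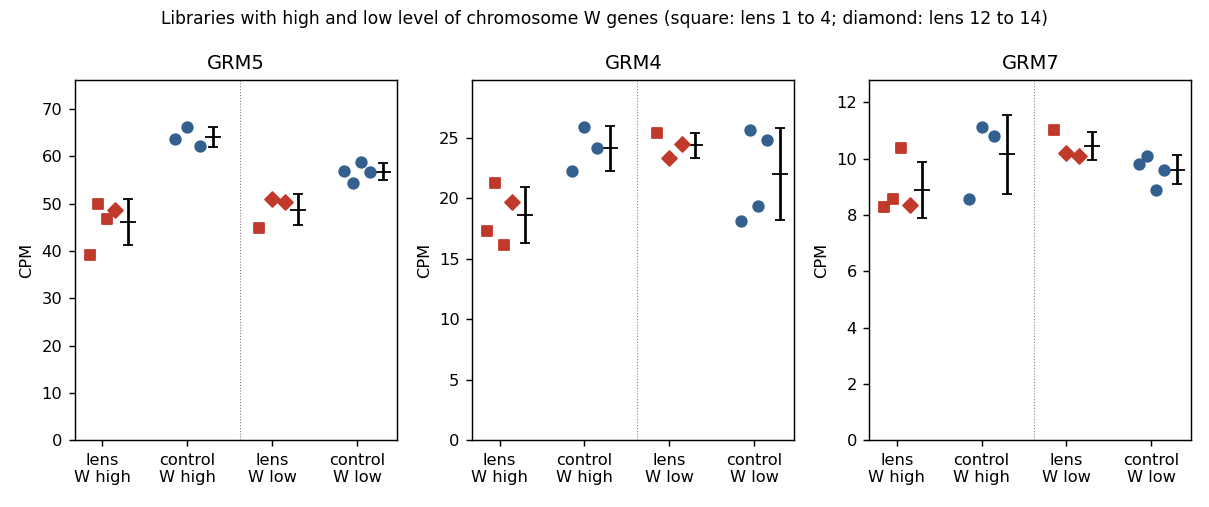
Level of GRM5, GRM4 and GRM7 in CPM on linear axes, with libraries split into W high and W low and, within each part, into lens and control; each point is 1 library (squares lens 1 to 4, diamonds lens 12 to 14, circles control) and bars give the mean ± SD. GRM5 is lower in lens in both parts (46.1 against 64.0 CPM and 48.7 against 56.7 CPM), while GRM4 is lower in lens among W high libraries (18.6 against 24.1 CPM) and not among W low ones (24.4 against 21.995 CPM).

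The receptor genes varied together only in part. Of 15 pairs over the 14 libraries, GRM4 and GRM8 had the largest Pearson correlation, r = 0.75 (permutation p = 0.00249, adjusted 0.0373). Spearman's rho was 0.69 (permutation p = 0.0076, adjusted 0.114). Without the 2 libraries farthest from the median of the first gene r was 0.59, and after centring on the means of the 3 sets it was 0.75. GRM5 correlated with the other 5 genes at -0.082 to 0.44, and none of these passed. After centring on the set means GRM5 correlated with GRM8 at 0.60, GRM7 at 0.27, GRM4 at 0.26 and GRM3 at -0.20, without a test. Uncentred and without the 2 libraries farthest from the GRM5 median, the value for GRM5 and GRM8 was -0.055.

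By correlation over the 14 libraries, the 5 genes most like GRM5 among 7326 with a mean of at least 5 CPM were STAC, BANF1, LOC112532478, SLC25A17 and AKR7A2. STAC, an adaptor of voltage-gated calcium channels, had r = 0.94, and 0.81 after centring on the means of the 3 sets. It averaged 13.4 ± 1.27 CPM in lens libraries and 16.1 ± 0.711 CPM in control libraries. BANF1, a chromatin-binding protein of the nuclear lamina, had r = 0.89 (0.85 centred), at 11.3 ± 1.70 CPM in lens and 13.8 ± 1.51 CPM in control libraries. The peroxisomal carrier SLC25A17 had r = 0.88, but 0.43 after centring. These correlations describe the 14 libraries, which differ in depth and may differ in dissection, as well as in the lens. Because GRM5 separated lens from control, genes picked for likeness to it tend to be lower in lens too. Their means therefore carry no separate support.

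The partners of GRM5 were taken from a list of group I receptor signalling. Of its 25 genes, 20 had values and 17 were tested. In lens libraries 1 to 4 against control 3 of these 17 rose and 1, GRM5, fell, where 9.4% of all genes tested rose and 4.05% fell. The median log2 difference was 0.019, beside 0.039 over all genes tested. SIAH1, a ubiquitin ligase that binds group I receptor tails in mammals, rose to 8.60 ± 0.575 CPM in lens libraries 1 to 4 against 6.51 ± 0.780 CPM in control (log2 0.36, limma adjusted p = 0.0202). The diacylglycerol kinases DGKZ and DGKI, which remove the lipid messenger made by phospholipase C, rose by 0.33 and 0.27 (limma adjusted p = 0.0287 and 0.0299).

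Whether scaffolds and channels that work with GRM5 passed as lower depended on the setting. The Homer scaffolds, named after their values were seen, did not pass in the test as given above. HOMER1 averaged 80.9 ± 10.3 CPM in lens libraries 1 to 4 and 94.4 ± 8.72 CPM in control (log2 -0.22, limma adjusted p = 0.0844). HOMER2 was at -0.18 and HOMER3 at 0.24 on the log2 scale, with adjusted p-values of 0.123 and 0.0980. SHANK2, a scaffold that Homer binds, was at -0.13 (adjusted p = 0.107). Under median-of-ratios scaling SHANK2 passed as lower (adjusted p = 0.0380), and DGKI no longer passed (0.0793). Under upper-quartile scaling SHANK2 (0.0452) and the calcium channel ITPR1 passed as lower, and under quantile normalization HOMER2 did (0.0458). Falls were more frequent among all genes under these scalings. Of the 11005 genes tested, 795 fell under median-of-ratios scaling, 799 under upper-quartile scaling and 750 under quantile normalization, beside 446 in the main test. With library weights HOMER1 (0.0227), HOMER2 (0.0467) and SHANK2 (0.0308) passed as lower, so that 3 genes of the list rose and 4 fell, GRM5 included. That setting called more genes throughout. Over all 11005 genes tested it gave 1366 rises and 731 falls, beside 1034 and 446 in the main test. Without lens library 4, HOMER1 (0.0175) and SHANK2 passed as lower, where 1021 of all genes tested rose and 481 fell.

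The Gi/o partners of group II and III receptors formed a list of 33 genes, with 30 having values and 29 tested, GRM3, GRM4, GRM7 and GRM8 among them. In lens libraries 1 to 4 against control 2 of the 29 rose and none fell, where 9.4% of all genes tested rose and 4.05% fell, and the median was 0.019 beside 0.039 over all genes. At an unadjusted p under 0.05, 6 were higher and 1 lower, where 20% of all genes tested were higher and 10.3% lower. RGS8, which speeds the shut-off of Gi/o signals, rose to 33.8 ± 5.57 CPM against 25.1 ± 1.76 CPM in control (log2 0.41, limma adjusted p = 0.00984). ELFN2, a postsynaptic protein that binds group III receptors across the synapse in mice, rose to 11.5 ± 1.19 CPM against 8.94 ± 0.863 CPM (log2 0.33, adjusted p = 0.0214). RGS4, of the same family as RGS8, was at 0.34 (adjusted p = 0.0952), and the adenylyl cyclase ADCY2 at -0.17 (adjusted p = 0.0849). ADCY2 passed as lower under median-of-ratios scaling (0.0354), upper-quartile scaling (0.0336) and quantile normalization (0.0318) and with library weights (0.0481), which made 2 higher and 1 lower in the list. Over all 11005 genes tested, falls numbered 795, 799, 750 and 731 under those settings in turn, beside 446 in the main test.

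GRM6 itself has no value here, but its ON bipolar cascade could be followed through its partners. Of 19 genes in that list, 15 had values and 14 were tested. TRPM1, the channel that mGluR6 controls, lies on chromosome 10 at 6125923 to 6179883 on the plus strand. It averaged 174 ± 10.6 CPM in lens libraries and 179.6 ± 9.54 CPM in control libraries (SD, n = 7 each). The groups overlapped and the log2 difference was -0.04 (limma adjusted p = 0.691). The 6 ON bipolar markers with values, TRPM1 included, summed to 248 to 277 CPM in lens and 257 to 283 CPM in control libraries.

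In lens libraries 1 to 4 against control 2 of the 14 cascade genes rose and none fell, with 3 higher and 0 lower at an unadjusted p under 0.05. Over all genes tested 9.4% rose and 4.05% fell, and 20% were higher and 10.3% lower at that unadjusted p. The median of the cascade genes was -0.0017, beside 0.039 over all genes. The 2 that rose code for parts of the complex that shuts off the G protein Go after mGluR6. RGS7, its catalytic part, rose to 85.7 ± 3.20 CPM against 77.0 ± 2.96 CPM in control (log2 0.15, limma adjusted p = 0.0390), and GNB5, the beta subunit it binds, to 94.5 ± 4.45 CPM against 80.6 ± 6.35 CPM (log2 0.23, adjusted p = 0.0269). Both genes are also expressed in other neurons. The call of RGS7 was lost under median-of-ratios scaling (adjusted p = 0.163) and when any of 9 of the 11 libraries was left out (highest adjusted p = 0.120). NYX, the dendritic anchor nyctalopin, was at -0.20 (adjusted p = 0.209), and LRIT2 at 0.30 (adjusted p = 0.126).

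Of 16 genes for glutamate release and clearance, 14 had values and 12 were tested. In lens libraries 1 to 4 against control 2 of the 12 rose and none fell, beside 9.4% and 4.05% of all genes tested. At an unadjusted p under 0.05, 3 were higher and 1 lower, beside 20% and 10.3% of all genes. The vesicular glutamate transporter SLC17A6 rose to 59.2 ± 5.74 CPM against 49.2 ± 2.92 CPM in control (log2 0.26, limma adjusted p = 0.0205). SLC38A2, an amino acid carrier that takes up glutamine, rose to 91.7 ± 10.4 CPM against 74.5 ± 6.64 CPM (log2 0.29, adjusted p = 0.0242). SLC17A8, another vesicular transporter, was at -0.28 (adjusted p = 0.0524), and SLC38A3, another glutamine carrier, at 0.31 (adjusted p = 0.124). Under median-of-ratios scaling neither SLC17A6 (adjusted p = 0.0659) nor SLC38A2 (0.0796) passed, while SLC17A8 (0.0227) passed as lower. SLC17A8 also passed as lower under upper-quartile scaling (0.0254), quantile normalization (0.0208) and library weights (0.0174), among other settings. Over all 11005 genes tested, 678 rose and 795 fell under median-of-ratios scaling, beside 1034 and 446 in the main test. Falls numbered 799, 750 and 731 under upper-quartile scaling, quantile normalization and library weights. The median of the list was 0.149, beside 0.039 over all genes.

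In all, 9 of the 72 genes tested in the 4 lists rose in lens libraries 1 to 4 against control, a share near the 9.4% of all genes that rose. RGS8 alone of the 9 passed with each of the 11 libraries left out in turn. The other 8 lost the call without 2 to 9 of the libraries. Under median-of-ratios scaling 5 of the 9 passed, namely RGS8, ELFN2, SIAH1, DGKZ and GNB5. None passed by the exact rank-sum test, whose smallest adjusted p for any gene was 0.0620.

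None of the genes of these 4 lists passed in all lens libraries against control or in lens libraries 12 to 14 against control (limma adjusted p). At an unadjusted p under 0.05, 7 of 72 were higher and 3 lower in the first of these comparisons, where 9.21% of all genes tested were higher and 5.5% lower. In the second, 1 was higher and 4 lower, against 2.24% and 2.95% of all genes tested. Between the lens sets, 3 of the 72 were higher in libraries 1 to 4 than in 12 to 14 and none lower, a share near the 3.53% of all genes tested that were higher. These were SIAH1, ELFN2 and RGS8, by 0.44, 0.44 and 0.54 on the log2 scale (limma adjusted p = 0.0443, 0.0425 and 0.0499). Under each of the 3 other scalings none of these 3 passed. The summed amacrine markers and the summed bipolar markers were higher in libraries 1 to 4 than in 12 to 14, without overlap. The same held for 15.5% of all genes tested. The bipolar sums nearly met, at 245.0 CPM (lowest, libraries 1 to 4) and 244.6 CPM (highest, libraries 12 to 14). The other marker sums overlapped. The part of any marker sum in these differences was not tested.

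**Figure D5:**
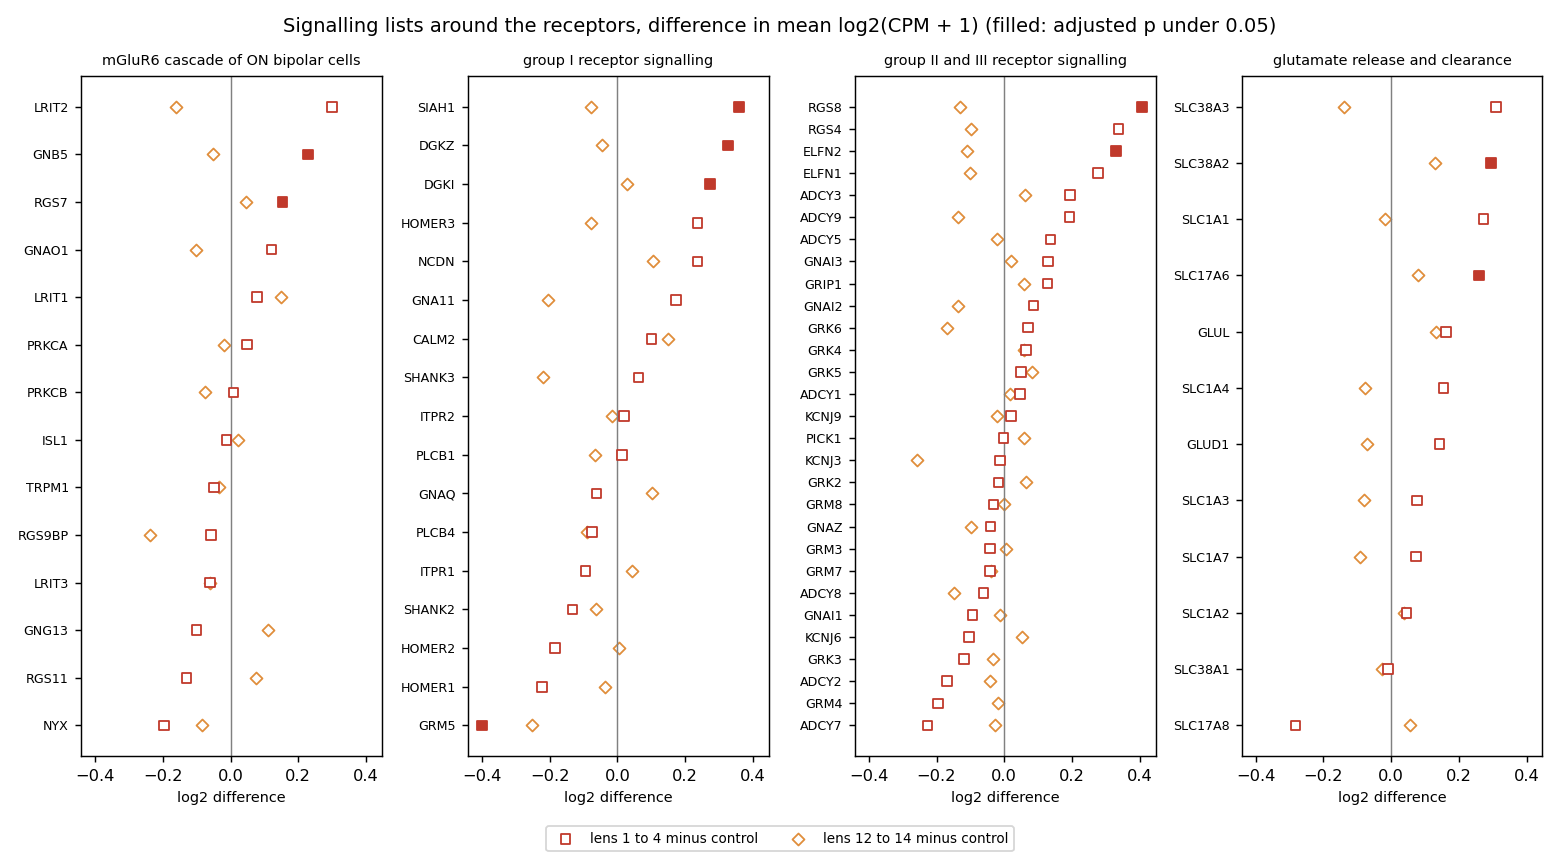
Log2 difference from control of the tested genes of the 4 signalling lists, in lens libraries 1 to 4 (squares) and lens libraries 12 to 14 (diamonds), both against the same 7 control libraries; filled marks passed the adjusted threshold. GRM5 lies below 0 in both sets, at -0.40 and -0.25, while RGS8 lies at 0.41 in libraries 1 to 4 and at -0.13 in libraries 12 to 14.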

How the data were processed

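Per the labels' protocols, the 14 libraries were made from total RNA with a stranded kit that removes ribosomal RNA. STAR, Partek and the build GRCg6a are named in the submitters' processing notes, with no role or version, and the sources used here do not give the step that assigned reads to genes. The deposited values, 1 column per library, were read as CPM from their own steps: within 0.05 steps, 93.8% to 95.1% of values up to 20 steps were whole multiples of 1 read (0.0203 to 0.0361 CPM). That share was too low for a count model. Listed genes held 8.65 to 15.3 M reads per library, and all error estimates from reads cover counting error only.

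Values were taken as log2(CPM + 1), which understates the change of low genes, and the 11005 genes averaging 1 CPM or more were tested with limma 3.58.1 in R 4.3.3 (mean-variance trend, two-sided, Benjamini-Hochberg over all genes, adjusted p under 0.05). The test was also run on simulated data, in which each gene was drawn independently. That run does not cover shifts shared by many genes of a library. GRM2 was tested by exact permutation with scipy 1.17.1. No 2 libraries were identical (correlations 0.970 to 0.993). The members and lists were chosen with earlier results of these data known, and GRM5 was singled out with its difference known. From each list the 4 genes of smallest p in lens libraries 1 to 4 against control were named, and HOMER1, HOMER2, HOMER3, SHANK2, ITPR1 and TRPM1 were added after their values were seen. Some genes of these lists are not reported here and enter no count. Levels were not ranked between genes, since CPM is not per length. Chromosome W genes were taken from the RefSeq names of GRCg7b (15419 symbols matched). Alternatives covered the pseudocount, the filter, the scaling, variance and weights, covariates, a rank-sum test and each library left out.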

Additional observations from a re-analysis of the deposited data

Results flagged for a closer look

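The 84 groups examined held 4 or 7 libraries each, lens libraries 1 to 4 being examined both alone and among all lens libraries. In 4 groups a library had a gap to the nearest other above the 95% critical value of Dixon's test. Chance alone gives about 1 in 20 for separate groups. None of the 6 receptor genes with values was in these 4 groups. NYX had 11.3 CPM in lens library 14, against 8.55 to 8.99 CPM in the other 6 lens libraries. RGS7 had 83.0 CPM in control library 21, against 74.3 to 77.7 CPM in the other control libraries. Of the genes most like GRM5, LOC112532478 had 4.49 CPM in lens library 1, where GRM5 was also lowest, against 5.46 to 6.04 CPM in the other lens libraries. SLC25A17 had 10.9 CPM in control library 10, against 12.1 to 12.7 CPM in the other control libraries.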

How the results depend on the processing

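GRM5 was lower in every comparison with control under every alternative run. In all lens libraries its log2 difference was -0.33 with library weights, which passed the threshold (limma adjusted p = 0.0492), and -0.36 to -0.29 with 1 library left out (adjusted p 0.0468 to 0.204, passing only without lens library 14). In lens libraries 1 to 4 GRM5 did not pass by the exact rank-sum test (adjusted p = 0.0620), where the difference of medians was -0.35. With 1 library left out the call held in the main test, at -0.45 to -0.33. In lens libraries 12 to 14 it was -0.28 to -0.23 with 1 library left out, and between the lens sets -0.19 to -0.081. The count of calls in lens libraries 1 to 4 against control, 1480, was 724 without lens library 3, 869 without lens library 1 and 911 without lens library 2, and 0 by the rank-sum test. Between the lens sets it was 551, and 9 without lens library 14.

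Differences near 0 changed sign, none of them called. For rank sums the value given is a difference of medians, where the main test compares means. In lens against control these were GRM3 with the W level as covariate (0.00089), GRM7 by rank sums (0.037), and GRM2 with a pseudocount of 0.25 CPM (-0.0034), median-of-ratios (-0.0053) or upper-quartile scaling (-0.0066) or rank sums (-0.0071). In lens libraries 12 to 14 against control they were GRM8 under median-of-ratios scaling (0.011), quantiles (0.0011), weights (0.0037) and the W covariate (0.00028), GRM3 under upper-quartile scaling (-0.00063) and the W covariate (-0.011), and GRM7 by rank sums (0.037). Between the lens sets they were GRM7 with the title letter (0.0074) and the W covariate (0.10), GRM3 with the W covariate (0.051) and GRM8 with it (0.0028).

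With 1 library left out, these ranges crossed 0. In lens against control GRM3 ran from -0.046 to 0.0091, GRM8 from -0.039 to 0.00021 and GRM2 from -0.027 to 0.024. In lens libraries 1 to 4 against control GRM7 ran from -0.11 to 0.017 and GRM8 from -0.065 to 0.0026. In lens libraries 12 to 14 against control GRM3 ran from -0.054 to 0.11, GRM4 from -0.080 to 0.069, GRM7 from -0.084 to 0.045 and GRM8 from -0.023 to 0.020. Between the lens sets GRM3 ran from -0.15 to 0.013, GRM7 from -0.087 to 0.056, GRM8 from -0.063 to 0.0049, and the log2 ratios of GRM5 to GRM3 and GRM4 from -0.16 to 0.0010 and -0.080 to 0.16. GRM2 in lens libraries 12 to 14 against control ran from -0.12 to -0.092, with exact permutation p up to 0.0556. The cause was not tested in any of these. Of the 9 list genes that rose in lens libraries 1 to 4, 7 lost the call without lens library 2 (all but RGS8 and DGKZ), 6 without lens library 3, 3 without lens library 1 or control library 18, 2 without lens library 4 or control library 17, 19 or 23, and 1 without control library 10 or 22. Between the lens sets, leaving out any 1 of the 7 libraries lost at least 1 of the 3 list calls.

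No paired analysis was possible because lens and control libraries share no replicate numbers. Results for GRM6 and its ratio to TRPM1 were not run. Depth limits GRM2 most, at 8.01 to 21.9 reads per library.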
